A study of Mus musculus with 45 samples.

Results

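The inflammasome and pyroptosis genes described here are *Nlrp3*, *Nlrc4*, *Aim2*, *Naip2*, *Naip5*, *Pycard*, *Casp1*, *Casp4*, *Casp8* and *Gsdmd*. They were chosen by name and not by any measured value, though with earlier results of these data known. Each symbol was matched to its Ensembl identifier. All 10 of the 10 genes were found among the 29307 genes counted, and 10 of 10 were among the 12905 genes that passed the filter on low counts. They were followed in bone marrow-derived macrophages, which are macrophages grown from mouse bone marrow in culture. The 15 mice were C57BL/6N animals of 6 to 10 weeks, 5 of each genotype: *Famin* p.254I, *Famin* p.254V or *Famin* p.284R. No group lacked an engineered *Famin* allele. Per the study's text these alleles stand for the human non-risk, risk and monogenic disease variants, in that order, of FAMIN, a purine enzyme encoded by the mouse gene *Lacc1*. Cells were cultured for 6 days and then left unstimulated (M0) or stimulated over 24 h. M1 cells received IFN-γ at 50 ng/mL together with LPS at 20 ng/mL, and M2 cells received IL-4 at 20 ng/mL. This gave 45 libraries in 9 groups of 5, and titles that share a genotype and a number were taken to name the 3 cultures of 1 mouse.

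Inflammasomes are cytosolic complexes in which a sensor protein recruits and activates an inflammatory caspase. NLRP3 responds to membrane and ion stress, AIM2 to cytosolic double-stranded DNA, and the NAIP proteins to bacterial flagellin or secretion-system proteins, after which they assemble with NLRC4. The adaptor ASC, encoded by *Pycard*, links sensors to caspase-1, which matures IL-1β and IL-18, whereas mouse *Casp4* encodes caspase-11, which is activated by cytosolic LPS. Both caspases cleave gasdermin D, encoded by *Gsdmd*, whose fragment forms the membrane pores of pyroptosis, and caspase-8 can join the same complexes. In macrophages the pathway is known for a priming step, in which stimuli such as LPS raise the RNA of some components before any complex forms. RNA levels alone do not show assembly, cleavage or cell death, and none of these was measured in the libraries.

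On the mouse genome mm10, *Casp1* (ENSMUSG00000025888) lies on the plus strand at chr9:5298517-5307265 and *Casp4* (ENSMUSG00000033538) follows it on the same strand at chr9:5308828-5336783. *Nlrp3* (ENSMUSG00000032691) lies on the plus strand at chr11:59541568-59566956. The 250 bases before an annotated start site of these genes are shown because *Casp1* and *Casp4* are neighbours that moved together in M1, and because *Nlrp3* was the sensor with the widest range of levels. The sequences are from RefSeq on GRCm38.p6, the same assembly as mm10, and read 5′ to 3′ on the plus strand. Capitals mark matches to the kappaB consensus, the motif of NF-κB factors.
*Casp4*, chr9:5308599-5308848: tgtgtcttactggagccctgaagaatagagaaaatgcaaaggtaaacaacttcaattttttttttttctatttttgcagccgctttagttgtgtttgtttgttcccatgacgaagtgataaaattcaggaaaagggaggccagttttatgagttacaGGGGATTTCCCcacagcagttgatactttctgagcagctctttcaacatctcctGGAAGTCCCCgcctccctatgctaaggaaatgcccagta
*Casp1*, chr9:5298267-5298516: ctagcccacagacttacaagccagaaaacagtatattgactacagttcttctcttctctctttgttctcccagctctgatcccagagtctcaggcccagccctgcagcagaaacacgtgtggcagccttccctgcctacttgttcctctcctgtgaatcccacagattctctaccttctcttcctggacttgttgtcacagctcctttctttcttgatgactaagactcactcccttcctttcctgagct
*Nlrp3*, chr11:59541319-59541568: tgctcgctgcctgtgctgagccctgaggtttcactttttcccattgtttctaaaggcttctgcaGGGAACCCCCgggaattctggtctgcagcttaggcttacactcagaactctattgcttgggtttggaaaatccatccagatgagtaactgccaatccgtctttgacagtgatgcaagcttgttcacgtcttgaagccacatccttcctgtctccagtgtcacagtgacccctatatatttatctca

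Promoter windows were matched for 9 of the 10 genes, without *Gsdmd*. The search covered both strands from 250 bases before to 50 bases after each start, for the kappaB consensus, the interferon-stimulated response element core GAAANNGAA and the gamma-activated sequence core TTCNNNGAA. *Casp4* had 2 overlapping windows that hold the same matches, and *Nlrp3* had 2 separate ones. The *Casp4* window shown held 3 kappaB matches, beginning 93, 92 and 39 bases before the start, of which the first pair overlap. The *Nlrp3* window shown held 1, beginning 186 bases before its start, whereas its other window, chr11:59542436-59542735, held no match to any motif, and the *Naip5* window also held 1. A core of the interferon-stimulated element was found in the *Naip2* window, 4 bases before its start. No motif was matched in the windows of *Casp1*, *Aim2*, *Pycard*, *Nlrc4* and *Casp8*. Among all 32851 promoter windows of the same length, 8.46% held a kappaB match, 8.56% an interferon-stimulated element core and 8.3% a gamma-activated sequence core. These matches describe letters and do not show that a factor bound there.

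The libraries held 17239009 to 43740283 counted reads (median 27553642), and no 2 libraries were identical. Levels below are CPM, the read counts scaled to a common library size, with the TMM scaling of edgeR. The 7 macrophage markers were all detected, with a summed level of 19550 to 33190 CPM in M0, 11220 to 15060 CPM in M1 and 9583 to 13830 CPM in M2. The 4 M1 markers summed to 1307 to 6641 CPM in M1 against at most 22.9 CPM elsewhere, and the 4 M2 markers to 4434 to 14160 CPM in M2 against at most 913 CPM elsewhere. The M1 sum was mostly *Cxcl9* and *Cxcl10*, at medians of 3262 and 393 CPM in M1. *Nos2* had a median of 19.7 CPM there, and *Il12b*, at 0.0831 CPM, was too low to test. Of the M2 markers, *Arg1* and *Retnla* reached at most 40.8 and 49.1 CPM in M1, where their medians were 0.653 and 0.0396 CPM. Of the 5 dendritic cell markers the sum was 208 to 432 CPM in M1, mostly *Clec9a* with a median of 294 CPM, against 0.745 to 2.18 CPM in M0, and 4.14 to 14.0 CPM in M2. *Xcr1* was also higher in M1, at a median of 8.17 CPM against 0.0276 CPM in M0, and *Zbtb46* in M2, at 7.34 CPM against 0.578 CPM, while *Flt3* and *Ccr7* had medians of 0.163 and 0.170 CPM in M1. The 7 neutrophil and precursor markers summed to 26.1 to 281 CPM in M0, 40.9 to 135 CPM in M1 and 16.1 to 73.1 CPM in M2. The 4 fibroblast markers summed to 15.7 to 84.6 CPM in M0, 6.32 to 19.8 CPM in M1 and 8.88 to 30.6 CPM in M2. B cell, T cell and erythroid markers summed to at most 0.487 CPM in any library. The part of these shifts in the results was not tested. Gene counts do not show which *Famin* allele a library carried. The M0 library of *Famin* p.254I replicate 4 stood apart for *Casp1* (201 CPM, next 138 CPM), *Casp4* (45.6 CPM, next 30.5 CPM) and *Gsdmd* (120 CPM, next 88.7 CPM), and values without that mouse are given where they moved most.

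The question of the first comparisons was how polarization changed these genes, over the 15 mice and 3 genotypes. In M1, 8 of the 10 genes rose against M0, 1 fell and 1 did not pass the test, and the largest increases were in *Casp4* at 4.05-fold, *Casp1* at 3.54-fold and *Aim2* at 2.72-fold. In M2, 4 rose and 6 fell against M0: *Nlrp3* decreased to 0.367 and *Nlrc4* to 0.487 of the M0 level, whereas *Pycard* increased 1.94-fold and *Gsdmd* 1.57-fold. The test was edgeR's quasi-likelihood test over all 12905 genes with Benjamini-Hochberg adjustment, and genes with an adjusted p under 0.05 were called. In the comparison of M1 with M0, 37.0% of all genes were called higher and 40.3% lower, and in that of M2 with M0 36.8% were called higher and 39.6% lower. The median log2 fold change of the 10 genes was 0.85 in M1 and -0.32 in M2, against -0.03 in both for all genes tested. In bulk RNA, fewer cells of a type and less RNA per cell cannot be told apart. The ranges of the 15 M1 and 15 M0 libraries did not overlap for 6 of the 10 genes, which was the case for 28.6% of all genes, and those of M2 and M0 did not overlap for 5 of the 10, against 23.4% of all genes. Both comparisons use the same M0 libraries.

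**Figure D1:**
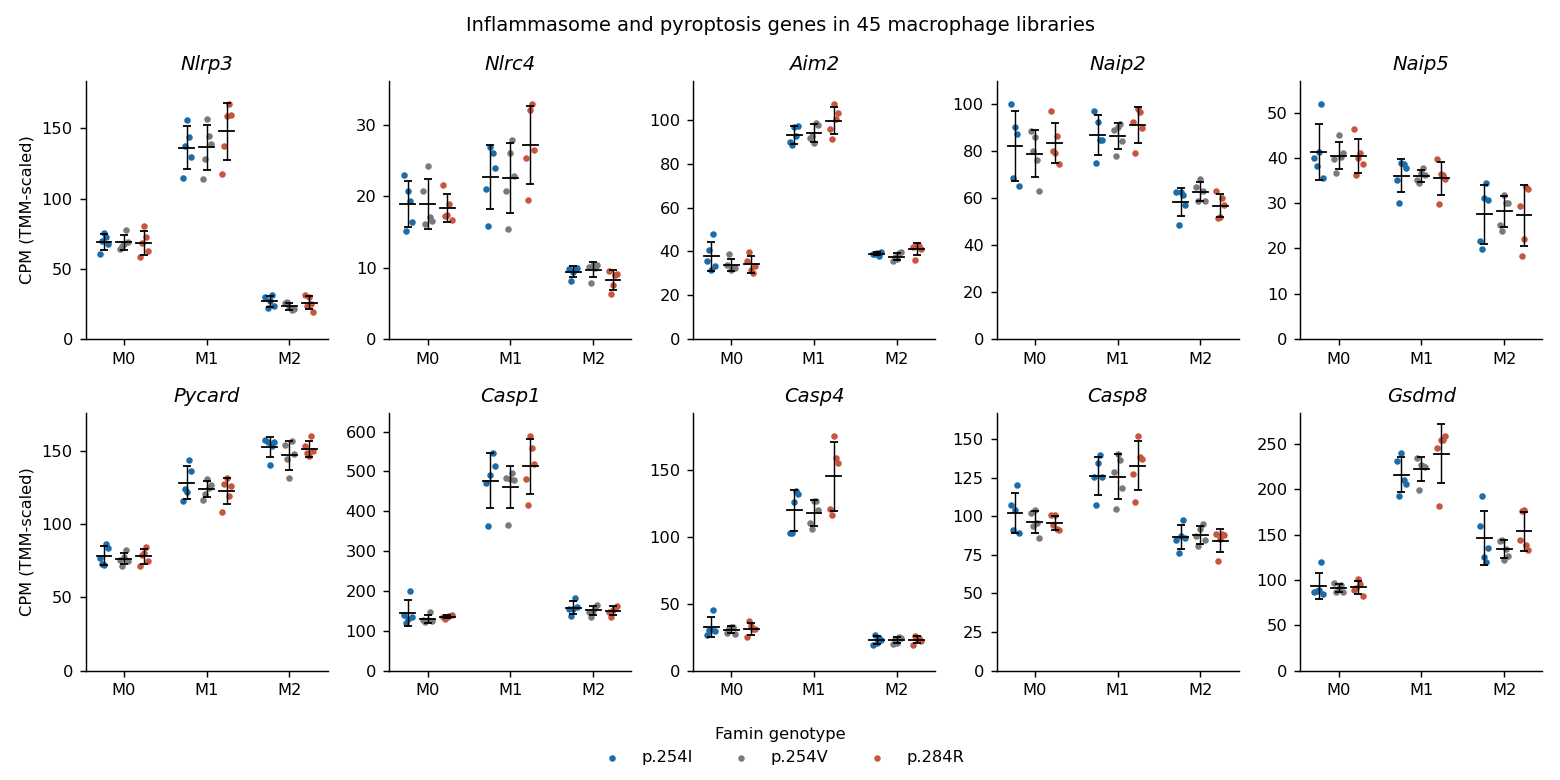
Level of each of the 10 genes in CPM on a linear axis from 0 in the 45 libraries, by polarization on the horizontal axis and *Famin* genotype in colour; each point is 1 library and black lines give the mean and SD of 5. *Casp1*, *Casp4*, *Aim2* and *Nlrp3* stand clear of M0 in M1 (15 of 15 mice higher), and the ranges of the 3 genotypes overlap in M0, M1 and M2.

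Among the sensors, *Nlrp3* ranged from 58.7 to 80.7 CPM in M0 (median 68.2), from 114 to 167 CPM in M1 (median 139) and from 19.5 to 31.3 CPM in M2 (median 24.8). The 3 ranges did not touch, and each of the 15 mice had its highest level in M1 and its lowest in M2. The log2 fold change was 1.02 in M1 against M0 (95% CI 0.89 to 1.15, adjusted p = 6.3e-18) and -1.45 in M2 against M0 (95% CI -1.58 to -1.31, adjusted p = 4.8e-22). Within a mouse, M1 exceeded M2 by 3.75-fold to 8.19-fold with a median of 5.72-fold.

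*Aim2*, the DNA sensor, had 30.0 to 47.8 CPM in M0 (median 33.5), 88.6 to 107 CPM in M1 (median 96.1) and 35.7 to 42.9 CPM in M2 (median 39.1). M1 lay above both other polarizations without overlap, while the M0 and M2 ranges overlapped. The log2 fold change was 1.44 in M1 (95% CI 1.35 to 1.53, adjusted p = 1.9e-28) and 0.15 in M2 (95% CI 0.07 to 0.24, adjusted p = 0.0018). The M2 difference was positive in 11 of 15 mice, and with total counts as the only scaling it was 0.09 and did not pass the test (adjusted p = 0.053; range over these alternatives 0.00059 to 0.053). *Aim2* overlaps *Cadm3* on the opposite strand, which had a mean of 0.0279 CPM.

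*Nlrc4*, the partner of the NAIPs, was the least abundant of the 10 genes per kilobase of exon. Its level was 15.1 to 24.2 CPM in M0 (median 17.4), 15.4 to 32.8 CPM in M1 (median 25.3) and 6.27 to 10.4 CPM in M2 (median 9.52). The M0 and M1 ranges overlapped and 12 of 15 mice were higher in M1, with a log2 fold change of 0.36 (95% CI 0.19 to 0.54, adjusted p = 0.00023). Every M2 library was below every M0 library, with a log2 fold change of -1.04 (95% CI -1.22 to -0.86, adjusted p = 1.4e-13).

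*Naip2* and *Naip5*, receptors for bacterial secretion-system protein and flagellin, lie next to each other on the minus strand at chr13:100144063-100202092 and chr13:100211739-100246323. They belong to a family of near-identical copies, so that reads could be split or lost between *Naip1*, *Naip2*, *Naip5* and *Naip6*, and their separate values are uncertain. *Naip2* had 63.1 to 99.7 CPM in M0 (median 80.1), 74.6 to 98.0 CPM in M1 (median 89.6) and 48.3 to 68.0 CPM in M2 (median 60.0). *Naip5* had 35.7 to 51.8 CPM in M0 (median 40.0), 29.8 to 39.7 CPM in M1 (median 36.3) and 18.3 to 34.6 CPM in M2 (median 30.0). Both were lower in M2 than in M0 in all 15 mice, at log2 fold changes of -0.46 for *Naip2* (95% CI -0.57 to -0.35, adjusted p = 1.6e-09) and -0.56 for *Naip5* (95% CI -0.71 to -0.40, adjusted p = 1.9e-08).

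In M1 the NAIP genes moved little. *Naip5* decreased by 0.18 on the log2 scale (95% CI -0.34 to -0.03, adjusted p = 0.025) and was lower in 14 of 15 mice. That call was lost when *Famin* p.254V mouse 1 or *Famin* p.284R mouse 1 was left out (adjusted p = 0.053 and 0.052), within a range of 0.020 to 0.053 over single mice left out. *Naip2* had a log2 fold change of 0.11 (95% CI 0.0020 to 0.23, adjusted p = 0.059) with 10 of 15 mice higher, which did not pass the test. Over single mice left out its adjusted p by edgeR ranged from 0.018 to 0.12, so that it passed in some of these fits. With the mouse as a replicate block *Naip2* did pass (0.12, adjusted p = 0.0037), and with the counts of all *Naip* genes summed the difference was -0.02 (adjusted p = 0.78), within a range of 0.0037 to 0.81 over the alternatives.

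*Pycard*, the adaptor, had 71.3 to 86.5 CPM in M0 (median 77.0), 108 to 144 CPM in M1 (median 125) and 132 to 160 CPM in M2 (median 154). It was higher in M1 and in M2 than in M0 in 15 of 15 mice, without overlap of the ranges. The log2 fold change was 0.69 in M1 (95% CI 0.61 to 0.76, adjusted p = 6.2e-21) and 0.95 in M2 (95% CI 0.88 to 1.03, adjusted p = 3.4e-25). It was the 1 member lower in M1 than in M2, by a log2 fold change of -0.27 (95% CI -0.34 to -0.20, adjusted p = 4.2e-09), and this held in 15 of 15 mice although the ranges overlapped.

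*Casp1*, the caspase that matures IL-1β and IL-18, had 119 to 201 CPM in M0 (median 134), 363 to 589 CPM in M1 (median 483) and 134 to 182 CPM in M2 (median 153). M1 was higher in every mouse, by 2.72-fold to 4.35-fold, at a log2 fold change of 1.83 (95% CI 1.70 to 1.95, adjusted p = 1.3e-26). The M2 difference was small, at 0.17 (95% CI 0.04 to 0.29, adjusted p = 0.015) with 14 of 15 mice higher, and with total counts as the only scaling it was 0.10 and did not pass (adjusted p = 0.15; range over these alternatives 0.00016 to 0.15). Its neighbour *Casp4*, encoding caspase-11, had 24.9 to 45.6 CPM in M0 (median 30.7), 103 to 176 CPM in M1 (median 126) and 18.9 to 26.4 CPM in M2 (median 23.6). The M1 libraries stood clear of both other polarizations, and the M2 range overlapped that of M0 although M2 was lower in 15 of 15 mice. For *Casp4* the log2 fold change was 2.02 in M1 (95% CI 1.87 to 2.16, adjusted p = 3.6e-26) and -0.47 in M2 (95% CI -0.61 to -0.32, adjusted p = 2.4e-07).

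*Casp8*, the initiator caspase, had the narrowest movement of the caspases. It had 85.8 to 120 CPM in M0 (median 96.0), 105 to 152 CPM in M1 (median 129) and 71.0 to 97.7 CPM in M2 (median 87.1). M1 was higher and M2 lower than M0 in all 15 mice, but both ranges overlapped that of M0. The log2 fold change was 0.39 in M1 (95% CI 0.29 to 0.49, adjusted p = 4.5e-09) and -0.19 in M2 (95% CI -0.29 to -0.09, adjusted p = 0.00098).

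*Gsdmd*, the pore-forming substrate, had 82.2 to 120 CPM in M0 (median 89.2), 182 to 259 CPM in M1 (median 227) and 120 to 192 CPM in M2 (median 138). It rose in both polarized states without overlap with M0, by log2 fold changes of 1.29 in M1 (95% CI 1.17 to 1.42, adjusted p = 6.8e-22) and 0.65 in M2 (95% CI 0.53 to 0.77, adjusted p = 2.0e-12). The lowest M2 library, at 119.8 CPM, was just above the highest M0 library, at 119.6 CPM, and within a mouse M2 exceeded M0 by 1.00-fold to 2.18-fold. Without *Famin* p.254I mouse 4, the log2 fold change in M1 against M0 was 1.86 for *Casp1*, 2.06 for *Casp4* and 1.34 for *Gsdmd*, and in M2 against M0 it was 0.21, -0.41 and 0.72, all called by edgeR.

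**Figure D2:**
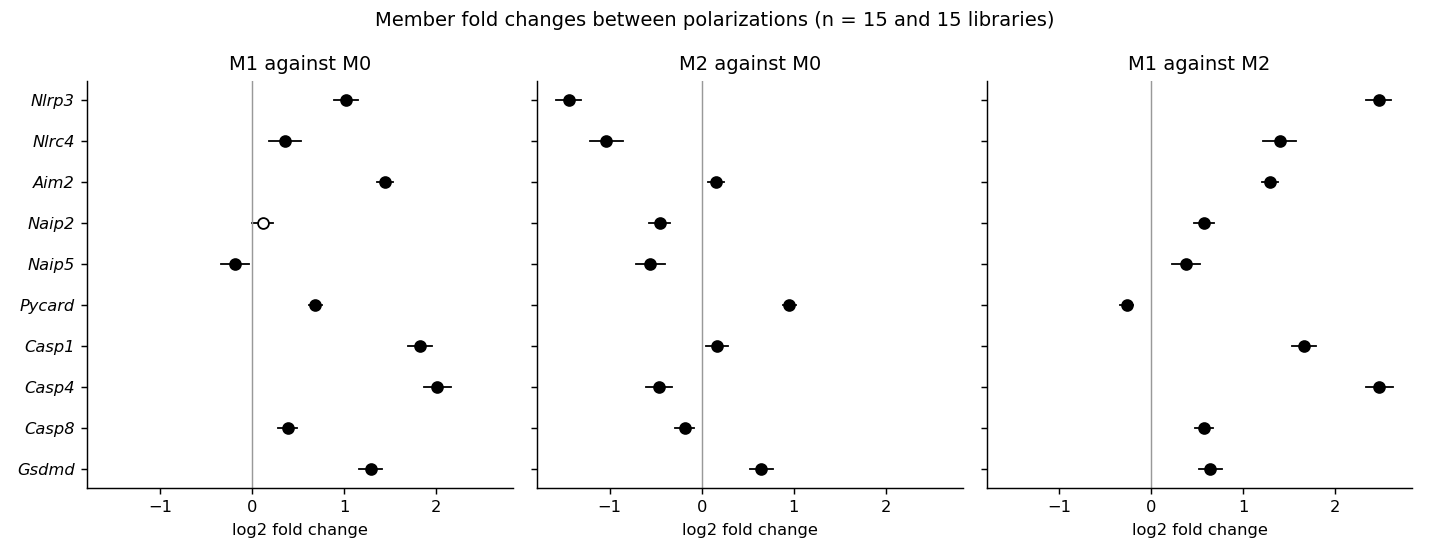
Log2 fold change of each gene between polarizations (horizontal axis), with 95% confidence intervals as bars, over 15 and 15 libraries; filled points passed the test and the open point, *Naip2* in M1 against M0, did not. *Casp4* reached 2.02 in M1 against M0 and *Nlrp3* -1.45 in M2 against M0.

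M1 and M2 were also compared directly. All 10 genes were called: 9 were higher in M1 and 1, *Pycard*, was higher in M2, whereas 39.0% of all genes were called higher in M1 and 40.1% lower. The ranges of the 15 and 15 libraries did not overlap for 7 of the 10 genes, against 35.7% of all genes, and *Naip5*, *Pycard* and *Gsdmd* were those that overlapped. The largest differences were in *Casp4* at a log2 fold change of 2.48 (95% CI 2.33 to 2.63, adjusted p = 4.3e-29) and *Nlrp3* at 2.47 (95% CI 2.33 to 2.61, adjusted p = 2.8e-30). *Casp1* followed at 1.66, *Nlrc4* at 1.40 and *Aim2* at 1.29, and the smallest positive difference was that of *Naip5* at 0.37. The median of the 10 log2 fold changes was 0.97, against -0.01 for all genes tested.

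Between genes, levels were compared as CPM per kilobase of summed exon length. *Casp1* had the highest level in each polarization, at 91.2 ± 12.8 CPM per kilobase in M0, 323 ± 42.5 in M1 and 102 ± 8.42 in M2 (SD, n = 15), without overlap with the next gene. *Gsdmd* came second in each, at 38.8 ± 3.83, 95.03 ± 9.94 and 60.9 ± 9.26 CPM per kilobase, and *Nlrc4* was last in each, at 3.90 ± 0.573, 5.03 ± 1.06 and 1.90 ± 0.249. In M0 the order after *Gsdmd* was *Casp8*, *Pycard*, *Nlrp3*, *Naip2*, *Aim2*, *Casp4* and *Naip5*. Of these neighbours, *Nlrp3* was above *Naip2* in 8 of 15 libraries and *Casp4* above *Naip5* in 11 of 15, so those levels did not separate. In M1 the order was *Casp8*, *Nlrp3*, *Casp4*, *Pycard*, *Aim2*, *Naip2* and *Naip5*, and *Nlrp3*, *Casp4* and *Pycard* did not separate, with 34.6 ± 4.23, 34.5 ± 5.73 and 32.9 ± 2.29 CPM per kilobase. In M2 *Pycard* moved up to the third place at 39.6 ± 1.99 CPM per kilobase, while *Nlrp3* was at 6.24 ± 0.967 and *Casp4* at 6.14 ± 0.632, and these last did not separate from each other, nor *Casp4* from *Naip5* (higher in 10 of 15 libraries). The lengths count every annotated exon of a gene, not the isoforms expressed, and the order depends on them. *Pycard* was divided by 3800 bases, *Gsdmd* by 2377 and *Casp1* by 1497. Before division, *Pycard* and *Casp1* had means of 151 and 153 CPM in M2. The order under the lengths of expressed isoforms was not tested, so the place of *Pycard* below *Casp1* and *Gsdmd* is uncertain.

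The second set of comparisons asked whether the *Famin* genotype changed these genes. None of the 10 was called in *Famin* p.284R against *Famin* p.254I, in *Famin* p.254V against *Famin* p.254I or in *Famin* p.284R against *Famin* p.254V, each averaged over the polarizations. Of all 12905 genes, 0.0155%, 0.0155% and 0.0% were called in these comparisons, and 0 members had an unadjusted p under 0.05 in any of them by edgeR without a block. The log2 fold changes of the members lay between -0.03 and 0.09 for *Famin* p.284R against *Famin* p.254I, with 95% intervals within -0.18 and 0.23, and between -0.09 and 0.01 for *Famin* p.254V, with intervals within -0.21 and 0.19. DESeq2 and limma-voom also called 0 of the 10. Without *Famin* p.254I mouse 4 the members lay between -0.0034 and 0.16 for *Famin* p.284R and between -0.04 and 0.07 for *Famin* p.254V, and 1 of them, *Casp4* for *Famin* p.284R, then had an unadjusted p under 0.05. With all mice and a block for the replicate number, edgeR gave *Casp1* an unadjusted p of 0.048 for *Famin* p.254V against *Famin* p.254I (adjusted p = 0.98). It gave *Casp4* 0.038 for *Famin* p.284R against *Famin* p.254V (adjusted p = 0.62), and no other member was under 0.05 in these averaged comparisons.

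Within a polarization, 0 members were called in *Famin* p.284R against *Famin* p.254I in M0, M1 or M2, where 0.0%, 0.263% and 0.00775% of all genes were called. For *Famin* p.254V the count was 0 of 10 in each polarization, with 0.0% of all genes called in M0, 0.0% in M1 and 0.0% in M2. The change of the genotype difference from M0 to M1 or M2, tested as 4 interactions for the 2 genotypes, called 0 members and 0.0% of all genes each time. Over these 10 comparisons, 4 member values had an unadjusted p under 0.05 by edgeR without a block: *Casp4* in M1 and *Aim2* in both interactions for *Famin* p.284R, and *Aim2* in M0 for *Famin* p.254V. With a block for the replicate number the list for *Famin* p.284R was *Casp4* (0.0045) and *Nlrc4* (0.014) in M1 and their interactions from M0 to M1 (0.024 and 0.049). It also held *Aim2* in that interaction (0.03) and, for *Famin* p.254V, *Casp1* in M0 (0.045). *Aim2* was then at 0.051 in M0 for *Famin* p.254V and at 0.054 in the interaction to M2, and 0 members were called. Leaving out any 1 mouse gave 0 called members in each genotype comparison and interaction.

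*Casp4* had the smallest p of the members in the averaged comparison of *Famin* p.284R with *Famin* p.254I, at a log2 fold change of 0.09 (95% CI -0.05 to 0.23). Without *Famin* p.254I mouse 4 it was 0.16 (unadjusted p = 0.021, adjusted p = 0.91 by edgeR). In M1 its level for replicates 1 to 5 was 103, 103, 126, 134 and 132 CPM in *Famin* p.254I. It was 111, 106, 127, 127 and 120 CPM in *Famin* p.254V and 121, 116, 176, 159 and 156 CPM in *Famin* p.284R. The first and the last of these ranges overlapped, whereas within each of the 5 replicate numbers *Famin* p.284R was higher, by 1.13-fold to 1.39-fold. The log2 fold change in M1 was 0.28 (95% CI 0.04 to 0.52, unadjusted p = 0.024, adjusted p = 0.63 by edgeR), and in a fit with a block for the replicate number it was 0.28 (unadjusted p = 0.0045, adjusted p = 0.20), which did not pass either. Over the other alternatives its adjusted p was at most 0.85, and over single mice left out it ranged from 0.19 to 1. In that block 64 genes were called over the whole table, against 34 without it. In M0 and M2 the *Casp4* log2 fold changes of *Famin* p.284R were -0.04 and 0.02, and the interaction from M0 to M1 was 0.32 (95% CI -0.02 to 0.66, adjusted p = 1 by edgeR). Without *Famin* p.254I mouse 4 the difference in M0 was 0.11 and the interaction 0.21.

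*Gsdmd* and *Pycard* followed *Casp4* in the averaged comparison of *Famin* p.284R. *Gsdmd* averaged 216 ± 19.1 CPM in *Famin* p.254I and 239 ± 32.5 CPM in *Famin* p.284R M1 macrophages (SD, n = 5), with an averaged log2 fold change of 0.06 (95% CI -0.06 to 0.19). *Pycard* averaged 128 ± 11.4 CPM in *Famin* p.254I and 123 ± 9.03 CPM in *Famin* p.284R in M1, with an averaged log2 fold change of -0.03 (95% CI -0.10 to 0.04), or -0.0034 without *Famin* p.254I mouse 4. *Nlrc4* in M1 was 21.0, 15.8, 26.8, 26.0 and 23.9 CPM for replicates 1 to 5 of *Famin* p.254I and 25.3, 19.4, 32.0, 32.8 and 26.4 CPM for those of *Famin* p.284R. It is named after its values were seen. *Famin* p.284R was higher within each of the 5 numbers in M1, at a log2 fold change of 0.26 (95% CI -0.04 to 0.56, adjusted p = 0.83 by edgeR, and 0.32 in the block on replicate number). In M2 it was lower within each of the 5 numbers, at 0.774 to 0.966 of *Famin* p.254I and a log2 fold change of -0.19 (95% CI -0.50 to 0.13, adjusted p = 1 by edgeR). In M1, *Famin* p.284R was above *Famin* p.254I within all 5 numbers for 5 of the 10 members, and in 4 of the 5 for *Naip2*, *Casp8* and *Gsdmd*. Besides *Casp4* and *Nlrc4* the 5 were *Nlrp3*, *Aim2* and *Casp1*, with median folds of 1.02, 1.07 and 1.02. In M0 this was so for 0 members and in M2 for 0. For *Famin* p.254V it was so only for *Naip2* in M2 (1.03-fold to 1.22-fold), among M0, M1 and M2. The share of all genes with such a pattern was not computed. Of all genes tested, 864 had an unadjusted p under 0.05 by edgeR for *Famin* p.284R within M1, against 140 in M0 and 148 in M2. Members also varied together within groups, so these counts are not separate observations.

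For *Famin* p.254V the members with the smallest p in the averaged comparison were *Aim2*, *Casp1* and *Pycard*. *Aim2* in M0 was 35.5, 40.7, 31.4, 47.8 and 33.2 CPM in *Famin* p.254I and 33.6, 38.8, 31.6, 32.6 and 32.3 CPM in *Famin* p.254V. The ranges overlapped, and the highest value was that of *Famin* p.254I replicate 4. In M0 the log2 fold change was -0.16 (95% CI -0.31 to -0.0041, unadjusted p = 0.045, adjusted p = 1 by edgeR). For *Famin* p.284R the *Aim2* interaction was 0.25 from M0 to M1 (95% CI 0.03 to 0.46, unadjusted p = 0.027) and 0.22 from M0 to M2 (95% CI 0.0020 to 0.44, unadjusted p = 0.048), both with an adjusted p of 1 by edgeR. Without *Famin* p.254I mouse 4 the M0 difference was -0.06 (unadjusted p = 0.41 by edgeR) and these interactions 0.14 and 0.11 (unadjusted p = 0.16 and 0.27 by edgeR), none under 0.05. The averaged log2 fold change of *Aim2* was -0.06 (95% CI -0.15 to 0.02), that of *Casp1* -0.09 (95% CI -0.21 to 0.04) and that of *Pycard* -0.05 (95% CI -0.12 to 0.02). *Casp1* in M0 averaged 144 ± 32.3 CPM in *Famin* p.254I and 130 ± 9.37 CPM in *Famin* p.254V (SD, n = 5), and without *Famin* p.254I mouse 4 the averaged log2 fold changes were -0.0018 for *Casp1*, -0.03 for *Aim2* and -0.02 for *Pycard*. These intervals bound the differences and do not show that they are 0.

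**Figure D3:**
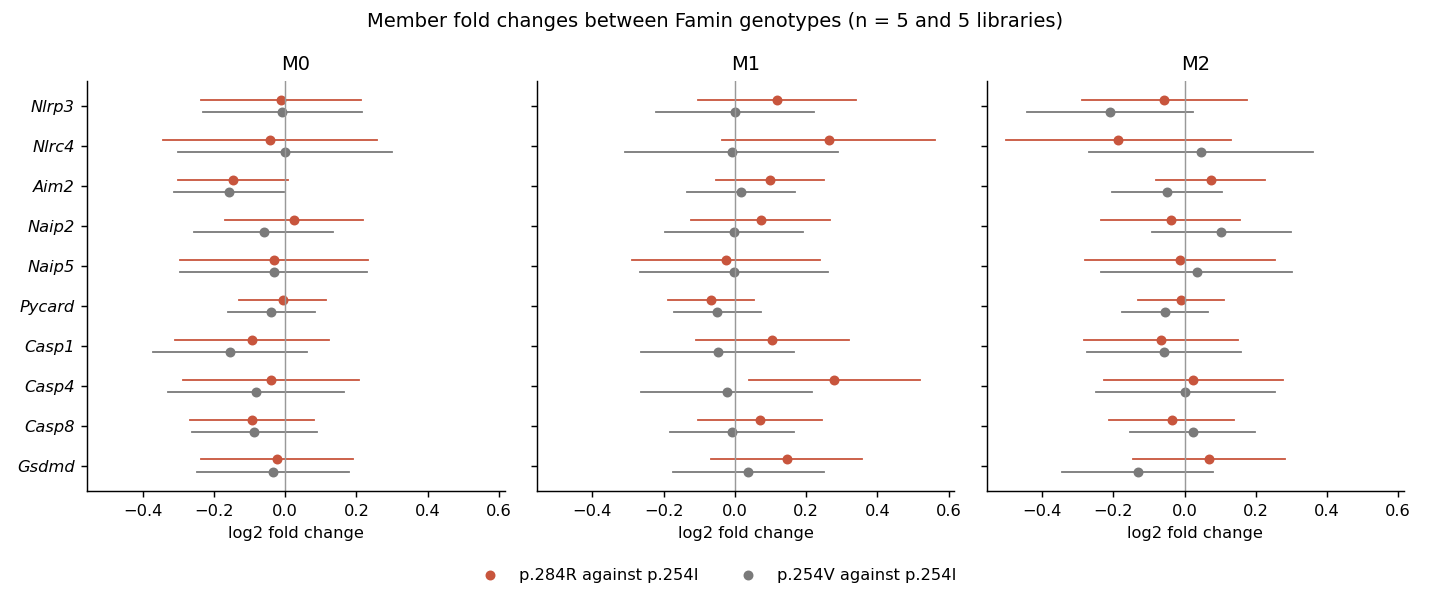
Log2 fold change of each gene in *Famin* p.284R and *Famin* p.254V against *Famin* p.254I within M0, M1 and M2 (5 and 5 libraries), with 95% confidence intervals as bars. The interval of *Casp4* for *Famin* p.284R in M1 (0.04 to 0.52) and that of *Aim2* for *Famin* p.254V in M0 leave out 0, and no plotted value passed after adjustment.

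Members were often lowest at the same replicate number in all genotypes. In M1, 9 of the 10 genes had their lowest level at the same replicate number in all 3 genotypes, and for 7 of them, *Nlrc4*, *Naip2*, *Naip5*, *Casp1*, *Casp4*, *Casp8* and *Gsdmd*, that was number 2. *Casp1* in M1, for replicates 1 to 5, was 471, 363, 491, 546 and 514 CPM in *Famin* p.254I. It was 483, 366, 482, 497 and 478 CPM in *Famin* p.254V and 482, 415, 589, 560 and 518 CPM in *Famin* p.284R. Number 2 was below the other 4 in each genotype. *Nlrp3* and *Pycard* were lowest at number 1 in M1 in all genotypes. The same number was lowest in all genotypes for 5 of 10 genes in M0 and 6 of 10 in M2. The share of all genes with this pattern was not computed, so the counts are not shown to be particular to the members. Over 9522 genes, M1 libraries of the same number also deviated together in 15 of 15 pairs (correlation above 0.1). What the number stands for in the culture or sequencing is not given in the sources used here, and its part in the results was not tested beyond the block.

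**Figure D4:**
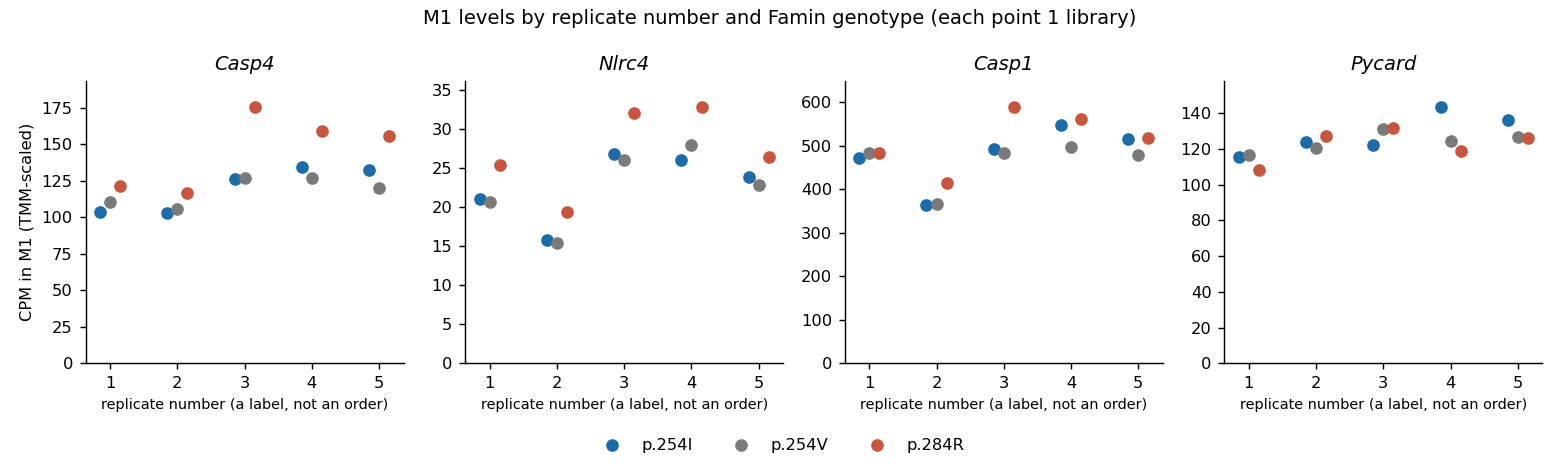
Level in M1 in CPM (vertical axis from 0) of *Casp4*, *Nlrc4*, *Casp1* and *Pycard* by replicate number, 1 point per library, coloured by *Famin* genotype. Number 2 is lowest in all 3 genotypes for *Casp4*, *Nlrc4* and *Casp1*, and number 1 for *Pycard*; *Famin* p.284R is the highest point for *Casp4* and *Nlrc4* at each number.

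The members also varied together within groups. Across all 45 libraries, Pearson's r of log2 CPM was positive for 39 of the 45 pairs of members with a median of 0.66, a measure that includes polarization. After each library was taken as its deviation from its group mean, r was positive for 41 of 45 pairs with a median of 0.25 and a range of -0.30 to 0.83. The closest pair on the second measure was *Nlrc4* with *Casp8* (0.83), and the others above 0.7 were *Casp1* with *Casp8* (0.79), *Naip2* with *Casp8* (0.74) and *Nlrc4* with *Naip2* (0.74). The lowest was *Naip5* with *Gsdmd* (-0.30). These libraries share mice, replicate numbers and scaling, so the values are a description.

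For each member, the genes with the most similar log2 CPM over the 45 libraries were listed. *Casp4* was followed most closely by *Il15ra* (r = 0.99) and *Klra2* (0.99), *Casp1* by *Rmdn3* (0.99) and *Tspo* (0.99), and *Aim2* by *Mlkl* (0.99) and *Psmb8* (0.99). *Gsdmd* had *Mag* (0.98) and *Ass1* (0.97), *Nlrp3* had *Trpm2* (0.98) and *Susd6* (0.98), and *Pycard* had *Calr* (0.97) and *Xbp1* (0.97). For *Casp8* they were *Tlr3* (0.97) and *Hltf* (0.96), for *Nlrc4* *Acp2* (0.96) and *Tcp11l1* (0.95), for *Naip2* *Uprt* (0.94) and *Apaf1* (0.94), and for *Naip5* its paralog *Naip6* (0.94) and *Xdh* (0.93). With 3 polarizations in the data, such values mainly order genes by their pattern over M0, M1 and M2.

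Of 35 other genes of the pathway, 33 could be tested, and *Nlrp6* and *Nlrp12* were too low. In M1 against M0, 18 of the 33 rose and 13 fell, in M2 against M0 7 rose and 19 fell, and in M1 against M2 22 were higher and 3 lower. Of all genes, 37.0% were called higher and 40.3% lower in the first comparison, 36.8% and 39.6% in the second, and 39.0% and 40.1% in the third, so that the 13 that fell in M1 were close to the share of all genes. None was called in *Famin* p.284R or *Famin* p.254V against *Famin* p.254I as the mean over polarizations. The median log2 fold change of the 33 was 0.34 in M1 and -0.46 in M2 against M0, and that of all genes tested was -0.03 in both. The groups below hold 5 to 7 genes each, and their counts are descriptions.

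Among 6 other sensors, 2 rose and 4 fell in each polarized state, and the 2 that rose were close to the 37.0% and 36.8% of all genes called higher. *Nlrp10*, an NLR without the leucine-rich repeats of its relatives, had 10.4 ± 1.25 CPM in M0, 4.61 ± 0.899 CPM in M1 and 25.6 ± 3.66 CPM in M2 (SD, n = 15), and was the 1 sensor both lower in M1 (log2 fold change -1.18, adjusted p = 7.9e-17) and higher in M2 (1.30, adjusted p = 1.1e-18). *Nlrp1b* decreased to 32.4 ± 9.59 CPM in M2 from 81.6 ± 12.6 CPM in M0 (-1.34, adjusted p = 3.4e-13). *Naip1* was under 1 CPM on average in each state and fell in both.

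The RNAs of the cytokine substrates of caspase-1, *Il1b* and *Il18*, were low. *Il1b* had 2.19 ± 1.44 CPM in M0, 5.13 ± 2.28 CPM in M1 and 0.608 ± 0.416 CPM in M2 (SD, n = 15), with log2 fold changes of 1.26 (adjusted p = 5.6e-05) and -1.85 (adjusted p = 1.9e-06) against M0. *Il18* moved the same way, at 8.47 ± 1.80, 17.96 ± 2.32 and 2.67 ± 0.864 CPM, with -1.66 in M2 (adjusted p = 7.7e-15). *Il18bp*, which encodes the soluble antagonist of IL-18, had 41.7 ± 21.0 CPM in M0 and 470 ± 56.7 CPM in M1, a log2 fold change of 3.50 (adjusted p = 9.0e-18). Of the 5 genes of cytokines and antagonists, 3 rose and 1 fell in M1, and 3 fell in M2. Of all genes, 37.0% were called higher and 40.3% lower in M1, and 39.6% lower in M2.

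Among 7 genes of triggering and assembly, 3 rose and 3 fell in M1, close to the 37.0% and 40.3% of all genes called higher and lower. *Zbp1*, a sensor of Z-form nucleic acid, rose to 591 ± 64.5 CPM in M1 from 45.9 ± 39.6 CPM in M0 (3.75, adjusted p = 2.3e-19) and fell in M2 (-0.81, adjusted p = 0.00026). *Txnip*, a thioredoxin-binding protein linked to NLRP3, fell in both states, by 0.59 and 0.67 on the log2 scale. Of the 5 genes of the caspase-8 complex and necroptosis, 4 rose and 1 fell in M1, led by *Mlkl*, the pore former of necroptosis (2.32, adjusted p = 5.0e-30), and by its kinase *Ripk3* (1.49, adjusted p = 1.1e-24). *Ripk3* also rose in M2 (0.81, adjusted p = 1.0e-15), and *Cflar*, a caspase-8 inhibitor, fell there (-0.45, adjusted p = 1.8e-07).

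Among 5 other caspases and rupture genes, 3 rose and 2 fell in M1, where 37.0% of all genes were called higher and 40.3% lower. *Casp12*, which lies in the inflammatory caspase family, rose to 12.8 ± 2.23 CPM from 0.898 ± 0.372 CPM (3.84, adjusted p = 3.5e-23). *Ninj1*, needed for plasma membrane rupture, fell by 1.36 in M2 (adjusted p = 1.3e-14). Of 5 dampers, 3 rose and 2 fell in M1, and in both groups the 2 that fell were close to the share of all genes. *Serpinb1a*, an inhibitor of inflammatory caspases, fell in M1 (-1.77, adjusted p = 8.7e-12) and rose in M2 (1.14, adjusted p = 1.8e-08), at 2.73 ± 1.06, 0.793 ± 0.263 and 6.06 ± 1.58 CPM in M0, M1 and M2. *Trim30a*, described as a restraint on NLRP3, rose 1.59 in M1 (adjusted p = 1.8e-14), and *Nlrc3* fell by 2.19 in M2 (adjusted p = 5.2e-19).

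**Figure D5:**
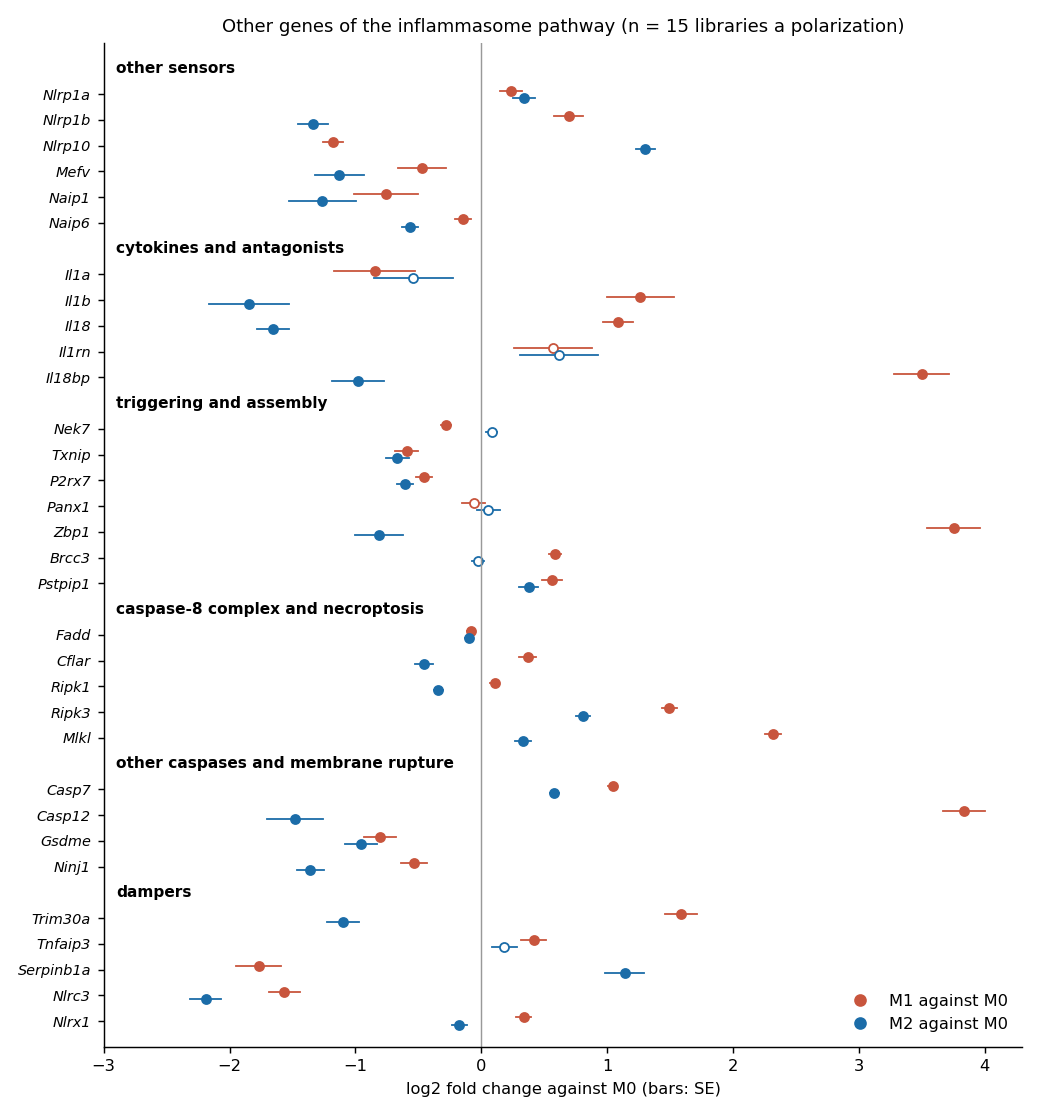
Log2 fold change against M0 of the other pathway genes tested, with 1 not shown, grouped by role, in M1 and in M2; bars are the SE, filled points passed the test and both contrasts share the M0 libraries. *Zbp1*, *Casp12* and *Il18bp* stand farthest to the right in M1 (3.75, 3.84 and 3.50).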

How the data were processed

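The 45 libraries of bone marrow-derived macrophages were grouped by *Famin* genotype and polarization from their labels. The deposited count table held unnormalized reads of 29307 Ensembl genes on mm10. A CPM table of 11900 genes, also deposited, gave the gene symbols. Whole reads recovered from the deposited CPM (within 0.01 read) were whole for 100% of values and equalled the counts for 100% of them. The sources name TruSeq stranded libraries and differ on the rest: TrimGalore and HISAT2 on a HiSeq3000, or Cutadapt and STAR on a HiSeq4000. The counting tool, its annotation and its use of strand are not given in the sources used here. Coordinates, exon lengths and overlaps were taken from GENCODE on the same assembly, which held 29081 of the identifiers.

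Analysis was done with edgeR 4.0.16 under R 4.3.3. The filter filterByExpr on the 9 groups left 12905 genes, and libraries were scaled by TMM (factors 0.939 to 1.10) and fitted with glmQLFit (robust) to the 9 groups without a replicate term. Genotypes were compared within each polarization and as the average of these differences, polarizations as means over genotypes, and interactions as the change of the genotype difference from M0. Genes with an adjusted p under 0.05 were called. The fits were tested on simulated counts drawn independently for each library. These held no effect of mouse or replicate number, so the check does not cover such effects. P-values and intervals in the polarization comparisons, averaged genotype comparisons and interactions treat the libraries as independent, although each mouse gave 3.

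The series text gives 5 mice per genotype, and a mouse was read from the genotype and number in the titles, so that its cultures were taken to pair the polarizations. Such cultures deviated together (correlation over 9522 genes above 0.1) in 13 of 15 pairs for M0 with M1, 15 of 15 for M0 with M2 and 10 of 15 for M1 with M2 (lowest -0.182). Between genotypes, libraries with the same replicate number did so in 15 of 15 pairs in M0, 15 of 15 in M1 and 13 of 15 in M2, so that numbers were taken to pair libraries in M0 and M1. Alternatives were DESeq2's size factors, total counts, the DESeq2 1.42.0 Wald test, limma-voom (limma 3.58.1), no filter, a mean of at least 1 CPM, the replicate number or the mouse as a block, only the libraries compared, counts summed per mouse, each mouse left out and all *Naip* counts summed. Reads recovered from the CPM table were an alternative chosen after seeing the data.

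The members, gene lists and markers were chosen with earlier results of these data known. Named genes were all 10 members, the 3 members with the smallest p in each averaged comparison with *Famin* p.254I, the 2 genes of each pathway group with the largest change in M1 and in M2, and the 2 genes most correlated with each member (log2 CPM, pseudocount 1). Others named are said to be so, and 1 gene that the rule names is not reported here.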

Additional observations from a re-analysis of the deposited data

Results flagged for a closer look

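In each group of 5 libraries, the highest and lowest level of each member was compared with the rest by Dixon's ratio on log2 CPM, with a critical value of 0.71. Of 90 groups tested, 11 held such a library, where chance gives about 1 in 20, or 4.5, if the groups were independent. They were not, since the 10 members were measured in the same 45 libraries and varied together within groups. Whether 11 exceeds chance was therefore not tested.

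Replicate 4 in M0 held 4 of them. In *Famin* p.254I M0, replicate 4 was highest for *Casp1* (201 CPM, next 138 CPM), *Casp4* (45.6 CPM, next 30.5 CPM) and *Gsdmd* (120 CPM, next 88.7 CPM). In *Famin* p.254V M0, replicate 4 was highest for *Casp1* (146 CPM, next 127 CPM).

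Replicate 2 held 6, each the lowest of its group. In M1 these were *Casp1* (366 CPM, next 478 CPM) and *Gsdmd* (199 CPM, next 224 CPM) in *Famin* p.254V, and *Gsdmd* (182 CPM, next 246 CPM) in *Famin* p.284R. In M2 they were *Nlrc4* in *Famin* p.254V (7.88 CPM, next 9.96 CPM) and, in *Famin* p.284R, *Aim2* (36.1 CPM, next 41.1 CPM) and *Casp8* (71.0 CPM, next 85.4 CPM). The last was *Pycard* in *Famin* p.254I M2, where replicate 3 was lowest (141 CPM, next 154 CPM).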

How the results depend on the processing

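The number of members called stayed at 9 to 10 in M1 against M0, 8 to 10 in M2 against M0 and 10 in M1 against M2 over every alternative run, and at 0 in each genotype comparison and interaction. With single mice left out these ranges were 9 to 10, 10, 10 and 0. The block on replicate number fitted the same effect of a number in all 9 groups, so it did not pair libraries separately within each polarization. In that block *Naip2* passed in M1 against M0 (0.12, adjusted p = 0.0053), as it did with the mouse as a block (0.12, adjusted p = 0.0037), and no other member's call changed. *Naip2* also passed with limma-voom (adjusted p = 0.047) and without the low-count filter (adjusted p = 0.043). With all *Naip* counts summed its difference reversed to -0.02. Over the whole table the block on replicate number raised the genes called in *Famin* p.284R against *Famin* p.254I within M1 from 34 to 64, DESeq2 also called 64 and limma-voom 11, only the libraries compared gave 1, and single mice left out gave 0 (without *Famin* p.284R mouse 5) to 109 (without *Famin* p.284R mouse 2). Total counts as the only scaling moved the median log2 fold change of all genes in M1 against M0 from -0.03 to -0.13, and *Aim2* and *Casp1* in M2 then missed the threshold.

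*Nlrc4* had the fewest reads per kilobase of exon among the members, and whether depth sets the width of its intervals was not tested. Reads shared between paralogs limit *Naip2* and *Naip5*. Genotype intervals rest on 5 mice per genotype. RNA levels carry no measure of protein, cleavage or cell death.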
